A study of Mus musculus with 2 samples.

Results

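Kinesins, cytoplasmic dynein and its activator dynactin move cargo along microtubules, and their genes were examined in J-RGCs, a type of mouse retinal ganglion cell marked by the adhesion molecule gene Jam2. The genes were chosen by symbol: every gene whose symbol starts with Kif, Dync or Dynl, or with Klc or Dctn and a digit. This gave 69 genes of the 24015 in the count files, and the rule itself uses symbols only. They comprise 15 heavy chains of transport kinesins, 14 mitotic kinesins, 4 kinesin light chains, the kinesin-2 subunit Kifap3, 3 kinesin-13 and kinesin-14 genes, 9 ciliary and other kinesins, the pseudogene Kif4-ps, 5 larger chains and 9 light chains of dynein, 2 chains of dynein 2 and 6 subunits of dynactin. The RNA came from retina at postnatal day 6, from cells that carried green fluorescent protein in a transgenic line specific to the type. Magnetic beads and flow cytometry were both used to isolate them. The only group held 2 libraries, A and B, each a pool of 5 to 6 animals from its own litter. The sources used here give neither the strain nor the promoter of the transgene. There was no other cell type, age or treatment, so each comparison is between genes or between the libraries.

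An axon has its microtubules oriented with their plus ends away from the cell body. Most kinesins walk towards plus ends and so carry vesicles, mitochondria and cytoskeletal cargo outward, while cytoplasmic dynein with dynactin carries endosomes, autophagosomes and survival signals back. Retinal ganglion cells depend on both, since their axons run from the eye to the brain. Other kinesins build and move the mitotic spindle, and dynein 2 works in cilia.

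Gene counts came to 7916204 in library A and to 13744313 in library B. Counts were scaled to a gene total of 1000000 per library (CPM), and for comparisons between genes also divided by the summed exon length of the gene in kilobases (CPM per kilobase). Paired values are given A before B, and other values as mean ± SD over n = 2 libraries. All 10 ganglion cell markers examined stood above 100 CPM in both libraries, Jam2 at 2344 and 1203 CPM. By the binomial test given below, 2 of the 10 were called higher in B, Pou4f2 (486 and 1011 CPM) and Thy1 (333 and 679 CPM), and 0 in A. The shares of all genes were 32.3% and 10.3%. TMM scaling gave 0 higher in B and 1 in A, against 22.4% and 14.8% of all genes. In bulk libraries such as these, fewer cells of a type and less RNA per cell cannot be told apart.

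The motor genes as a set made up 0.952% of A and 1.18% of B. A gene was taken as detected where each library had 1 CPM or more, which 49 of the 69 met, against 46.8% of all genes. At least 10 CPM in both was reached by 34 (27.8% of all genes) and at least 100 CPM by 17 (6.53% of all genes). Among the 20 not detected, 6 had no read in either library: Kif12, Kif2b, Kif4-ps, Dynlrb2, Dynlt1c and Dynlt1f. No read allows up to 0.379 CPM in A and 0.218 CPM in B at a floor of 3 counts, which covers counting error only. The lower library stood at 1.01 CPM for the weakest detected members, Kif4 and Kif23, and at 0.758 CPM for the strongest undetected one, Kif24.

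The heavy chains of transport kinesins dominated. They took 59.3% of all motor gene counts in A and 66.5% in B, and 14 of the 15 were detected. Kif1a, the kinesin-3 motor of synaptic vesicle precursors, stood highest at 167 and 214 CPM per kilobase, rank 95 of the 23621 genes with a length. Kif5a and Kif5c, neuronal heavy chains of kinesin-1, the main motor for fast outward transport, followed at 136 and 176 and at 117 and 161 CPM per kilobase. These genes were close to each other, with Kif1a over Kif5a at 1.22-fold (95% interval 0.432 to 3.45) and Kif5a over Kif5c at 1.12-fold (0.403 to 3.12). The intervals combine counting error with the spread that edgeR's trended dispersion gives for genes of that level, and one that holds 1 does not show equal levels.

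Within kinesin-1 the third heavy chain, Kif5b, which most cell types use, stood at 35.5 and 54.4 CPM per kilobase. Kif5a exceeded it 3.47-fold (1.28 to 9.37) and Kif5c exceeded it 3.10-fold (1.15 to 8.34). Each of these intervals held 1 when only library A or only library B was used, where the Kif5a ratio was 3.82-fold and 3.24-fold. Kif5c over Kif5b also lost its separation when the longest transcript replaced the summed exon length. Both neuronal heavy chains lay above Kif5b in each library, within wide intervals.

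Kinesin light chains link kinesin-1 to its cargo, and Klc1 was by far the main one. It stood at 31.2 and 48.6 CPM per kilobase, against 0.917 and 3.41 for Klc2, 0 and 0.949 for Klc4 and 0 and 0.220 for Klc3. Klc1 exceeded Klc2 18.4-fold (6.57 to 51.7) and Klc4 84.1-fold (30.3 to 233). The ratio to Klc2 was 34.1 in A and 14.2 in B, and that to Klc4 was 51.2 in B. Against the heavy chain Kif5c, Klc1 lay at 0.287-fold (0.110 to 0.745), a separation that ended in either library alone and with the longest transcript.

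Kinesin-2 in its usual form is a trimer of Kif3a, Kif3b and the accessory subunit Kifap3, with Kif3c as an alternative partner of Kif3a. Kif3a stood at 75.0 and 123 CPM per kilobase and Kifap3 at 91.0 and 149, a ratio of 0.826 (0.313 to 2.18) that was 0.825 in A and 0.826 in B. Kif3b, the usual partner, was far lower at 5.18 and 18.0 CPM per kilobase, and Kif3c stood at 11.5 and 19.2. Kif3a exceeded Kif3b 8.53-fold, or 3.09 on the log2 scale (1.80 to 4.39), and Kif3c 6.45-fold (2.60 to 16.0). The ratio to Kif3b was 14.5 in A and 6.82 in B. Exons of genes on the opposite strand cover 40.7% of the exon length of Kif3c in GENCODE M21. The sources used here do not say whether counting used strand. Without it, reads of such partners cannot be told apart from those of Kif3c. Reads over a shared stretch may then be counted for Kif3c or set aside as ambiguous. Ambiguous reads made up 0.313% of the listed reads in A and 0.357% in B, and the effect on Kif3c was not tested. Kif17, a kinesin-2 motor known from dendrites and photoreceptor cilia, was barely read at 0.138 and 0.588 CPM per kilobase, and Kif3a exceeded it 273-fold (96.6 to 770), or 544-fold in A and 209-fold in B.

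Of the other kinesin-3 genes, Kif1b, which carries mitochondria and synaptic vesicle precursors, stood at 57.2 and 79.8 CPM per kilobase. Kif1a lay above it in both libraries, at 2.78-fold, but the interval of 0.980 to 7.87 held 1. With edgeR's common dispersion the interval excluded 1, at 0.04 to 2.91 on the log2 scale. The log2 ratio of 1.47 became 0.56 without length correction and 0.88 with the longest transcript, and both intervals then held 1. Kif1c, a related motor of many cell types, was 133-fold lower than Kif1b (interval 44.5 to 400.0) at 0.278 and 0.750, a ratio of 206 in A and 106 in B. Kif13a, a motor of endosomes, stood at 17.9 and 31.5 CPM per kilobase and exceeded its paralog Kif13b 20.6-fold (7.70 to 54.9), with Kif13b at 1.18 and 1.22. Kif16b, also an endosomal motor, stood at 0.711 and 2.08 CPM per kilobase. Kif1c and Kif13b thus stood at the low end while close relatives stood far above them.

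The kinesin-4 pair differed less. Kif21a, which restrains microtubule growth and is tied to the wiring of eye muscle nerves, stood at 46.9 and 71.1 CPM per kilobase, and Kif21b at 12.3 and 17.9. Kif21a exceeded Kif21b 3.91-fold (1.54 to 9.94), a log2 ratio of 1.97 that became 1.06, with an interval that held 1, when length was not corrected. Along the whole order of the 15 heavy chains, 13 of the 14 steps between neighbours were not separated. The exception was the step from Kif3b to Kif16b, 8.31-fold (3.14 to 22.0). It divided 11 genes with a mean of at least 10 CPM per kilobase from 4 below 3, namely Kif16b, Kif13b, Kif1c and Kif17.

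**Figure D1:**
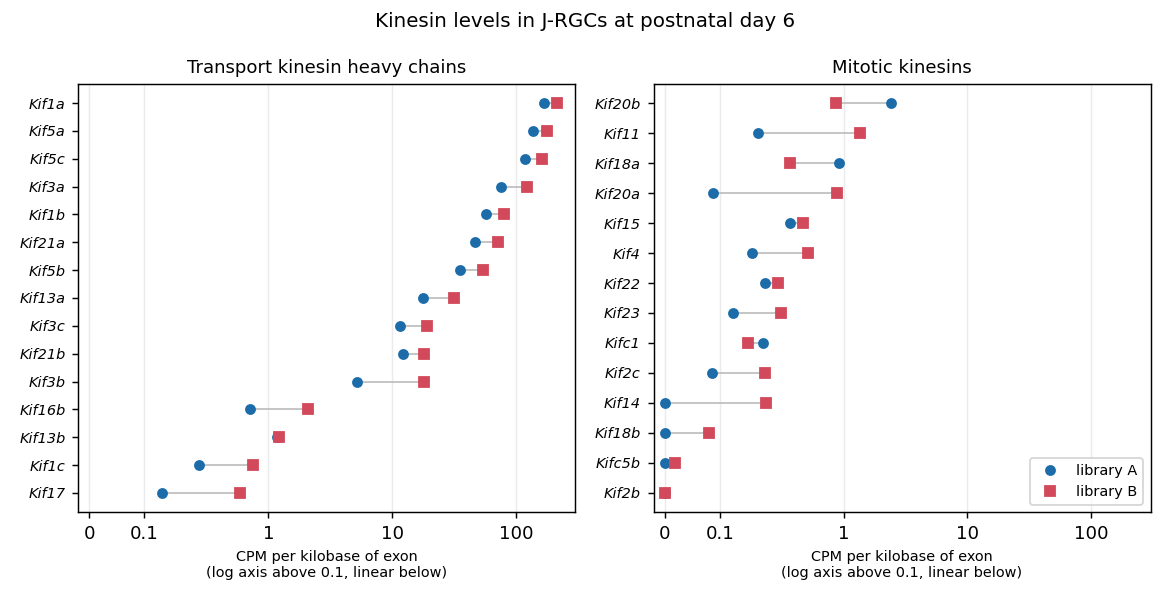
Levels of 15 transport kinesin heavy chains (left) and 14 mitotic kinesins (right) in CPM per kilobase of exon, 1 point per library, on an axis that is logarithmic above 0.1. In all, 11 of the transport genes lie to the right of every mitotic one shown in both libraries, from Kif1a at 167 and 214 down to Kif3b at 5.18 and 18.0. The highest value among the 14 mitotic genes shown is 2.41. Cenpe, outside the symbol rule, and Kif2a, listed in another class, are not shown.

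Mitotic kinesins lay far below the transport heavy chains. Their median, members without a read included, was 0.156 and 0.305 CPM per kilobase, against 17.9 and 31.5. The median of all genes with a length was 0.245 and 0.660, and of those with a read 1.51 and 2.27. On the log2 scale with a pseudocount of 0.5, the transport median exceeded the mitotic one by 4.81 in A and 5.31 in B. The 14 mitotic genes summed to 36.1 and 39.9 CPM, or 0.380% and 0.337% of motor gene counts. Of these genes 7 were detected, none reached 10 CPM in both libraries, and 4 had no read in A. The gap depends on which genes were listed as mitotic. Cenpe, a centromere kinesin gene whose symbol falls outside the rule, stood at 1.16 and 3.93 CPM per kilobase. Kif2a, at 73.3 and 56.6, was placed with the kinesin-13 and kinesin-14 genes.

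By its mean the highest mitotic member was Kif20b, a kinesin-6 family motor of late mitosis, at 2.41 and 0.868 CPM per kilobase. Kif11, the kinesin-5 motor that pushes spindle poles apart, stood at 0.203 and 1.35, and Kif18a, which sets chromosome alignment, at 0.925 and 0.370. In library B both Kif11 and Kif20a, at 0.889, lay above Kif20b. Kif15, which assists Kif11 at the spindle, stood at 0.367 and 0.469 CPM per kilobase, and Kif22, which pushes chromosome arms, at 0.232 and 0.297. Kif4, Kif23 and Kif20a, which act in the central spindle and in cell division, stood between 0.0874 and 0.889 CPM per kilobase in the libraries. The depolymerase Kif2c stood at 0.0869 and 0.233, while its relative Kif2a, which trims microtubules in neurons, reached 73.3 and 56.6, a ratio of 405 (135 to 1218) that was 844 in A and 242 in B. The other members with reads were Kifc1, Kif14, Kif18b and Kifc5b, and Kif14, Kif18b and Kifc5b had no read in A. No step between neighbours in the mitotic order was separated. Exons of Cdc23 on the opposite strand cover 29.3% of the exon length of Kif20a, and those of Pdzd11 15.1% of Kif4. Kifc1 and Kifc5b are similar copies whose reads may be shared or lost, so their values are uncertain.

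Markers of dividing cells had a higher median than the mitotic kinesins. Of 18 such genes 12 were detected, with a median of 1.12 and 1.06 CPM per kilobase and a sum of 222 and 161 CPM. Mki67 stood highest at 11.5 and 4.15 CPM per kilobase, followed by the cyclin gene Ccna2 at 2.91 and 3.58, the centromere kinesin gene Cenpe at 1.16 and 3.93 and the topoisomerase gene Top2a at 3.10 and 1.87. The lowest were Cdk1 at 0.128 and 0.0590 CPM per kilobase and Cdc20 with 0 and 1 reads. Of the 16 markers tested between the libraries by the binomial test given below, 2 were called higher in A, Mki67 among them. Another 4 were called higher in B, Cenpe among them, and the rest were not called. The shares of all genes were 10.3% higher in A and 32.3% higher in B. Of the mitotic kinesins, Kif20b and Kif18a were called higher in A, and Kif11, Kif20a, Kif14 and Kif4 in B. Microglia markers, 8 of 10 detected, had a median of 10.4 and 11.8 CPM per kilobase. Those of Mueller glia and progenitors, 6 of 10 detected, had a median of 4.28 ± 0.401 (SD, n = 2), and rod markers, 5 of 8 detected, one of 0.892 ± 0.357. Some mitotic kinesins are also known from neurons that no longer divide. Which cells gave the mitotic kinesin reads was not tested.

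Promoter sequence is shown for the 2 highest members of each kind that the RefSeq promoter table holds, because the kinds lie so far apart in level. The table is on build GRCm38.p6 and matched 52 of the 69 genes by symbol. Each line gives the 150 bases before the first listed start, in lower case, with 3 motifs in capitals where they occur on either strand: TTTGAA and CCAAT, which recur in promoters of genes switched on for mitosis, and the GC box GGGCGG. Kif1a lies at chr1:93101875-93102024 (minus strand), Kif5c at chr2:49619136-49619285 (plus strand), Kif20b at chr19:34922208-34922357 (plus strand) and Kif11 at chr19:37376232-37376381 (plus strand).
Kif1a: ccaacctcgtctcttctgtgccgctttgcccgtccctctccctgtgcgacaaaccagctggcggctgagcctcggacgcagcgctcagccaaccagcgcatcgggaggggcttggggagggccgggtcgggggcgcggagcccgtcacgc
Kif5c: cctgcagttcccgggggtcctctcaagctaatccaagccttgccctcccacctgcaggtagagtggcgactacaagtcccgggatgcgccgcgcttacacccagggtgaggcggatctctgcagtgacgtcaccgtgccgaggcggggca
Kif20b: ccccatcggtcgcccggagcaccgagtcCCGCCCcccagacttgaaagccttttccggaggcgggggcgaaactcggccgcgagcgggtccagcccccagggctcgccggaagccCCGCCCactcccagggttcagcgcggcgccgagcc
Kif11: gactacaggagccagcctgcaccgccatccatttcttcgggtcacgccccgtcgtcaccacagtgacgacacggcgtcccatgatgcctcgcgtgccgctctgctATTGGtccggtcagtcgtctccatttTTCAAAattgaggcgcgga

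The stretches of Kif1a and Kif5c held none of the 3 motifs. Kif20b held 2 GC boxes, and Kif11 held 1 CCAAT and 1 TTTGAA, each on the reverse strand. Among transport heavy chains, 0 of 11 promoters held TTTGAA, 3 of 11 CCAAT and 7 of 11 GGGCGG. Among mitotic kinesins these counts were 4 of 13, 9 of 13 and 5 of 13. Over the 52 matched motor genes the shares were 11.5%, 40.4% and 57.7%. Over all 32851 promoters of the table, which lists more than 1 start for some genes, they were 9.07%, 24.5% and 28.6%. CCAAT and GGGCGG can overlap on opposite strands, and each was then counted. All these counts describe letters only, for motor genes before 1 annotated start per gene, and say nothing of binding.

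Of the remaining kinesins, Kifc2, a kinesin-14 motor found in neurons, stood at 4.95 and 8.66 CPM per kilobase and exceeded Kifc3 8.65-fold (3.01 to 24.9). Kif2a exceeded Kifc2 9.54-fold (3.70 to 24.6), 14.8-fold in A and 6.53-fold in B, but exons of Dimt1 on the opposite strand cover 19.2% of its exon length. Of 9 ciliary and other kinesins 4 were detected. Kif26b, a kinesin-11 protein, was highest at 2.97 and 3.92 CPM per kilobase, then Kif26a at 1.59 and 1.79, Kif9 at a mean of 1.64 ± 0.197 and Kif27 at 1.02 and 0.307. Kif7, which organises the ciliary tip for Hedgehog signalling, had 1 and 4 reads, Kif19a had 2 and 1, and Kif24 and Kif6 stood below 0.5 CPM per kilobase in both libraries.

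Cytoplasmic dynein 1 was read through all its core chains. The heavy chain gene Dync1h1, which holds the motor, stood at 52.9 and 75.1 CPM per kilobase. The intermediate chain gene Dync1i2, whose product binds dynactin, stood at 47.8 and 38.2, a ratio of heavy to intermediate chain of 1.49 (0.553 to 4.01). The ratio fell below 1 with the longest transcript, and without length correction its interval excluded 1. Dync1i1, the intermediate chain known as the neuronal form, was much lower at 2.79 and 6.21 CPM per kilobase, or 0.105-fold of Dync1i2 (0.0385 to 0.285), with 0.0585 in A and 0.163 in B. The light intermediate chains, which bind cargo adaptors, stood at 12.6 and 17.8 for Dync1li1 and 15.2 and 14.6 for Dync1li2. Their ratio was 1.02 (0.440 to 2.36), and which of them was higher differed between the libraries.

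Light chains of dynein 1 come in 3 families, called roadblock, Tctex and LC8. In the roadblock family Dynlrb1 stood at 69.1 and 57.1 CPM per kilobase, while Dynlrb2 had no read, so Dynlrb1 was at least 247-fold higher against 3 counts over both libraries. In the Tctex family Dynlt3 stood at 47.0 and 43.8 CPM per kilobase. The mouse Dynlt1 copies are nearly identical and reads that fit several places were set aside, so Dynlt1a (3.85 and 3.55), Dynlt1b (0.164 and 2.26), Dynlt1c and Dynlt1f (no read) are uncertain and were not compared. In the LC8 family Dynll2 stood at 19.5 and 34.5 and Dynll1 at 12.3 and 15.8 CPM per kilobase. Dynll1 over Dynll2 was 0.521 (0.225 to 1.21), not separated.

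**Figure D2:**
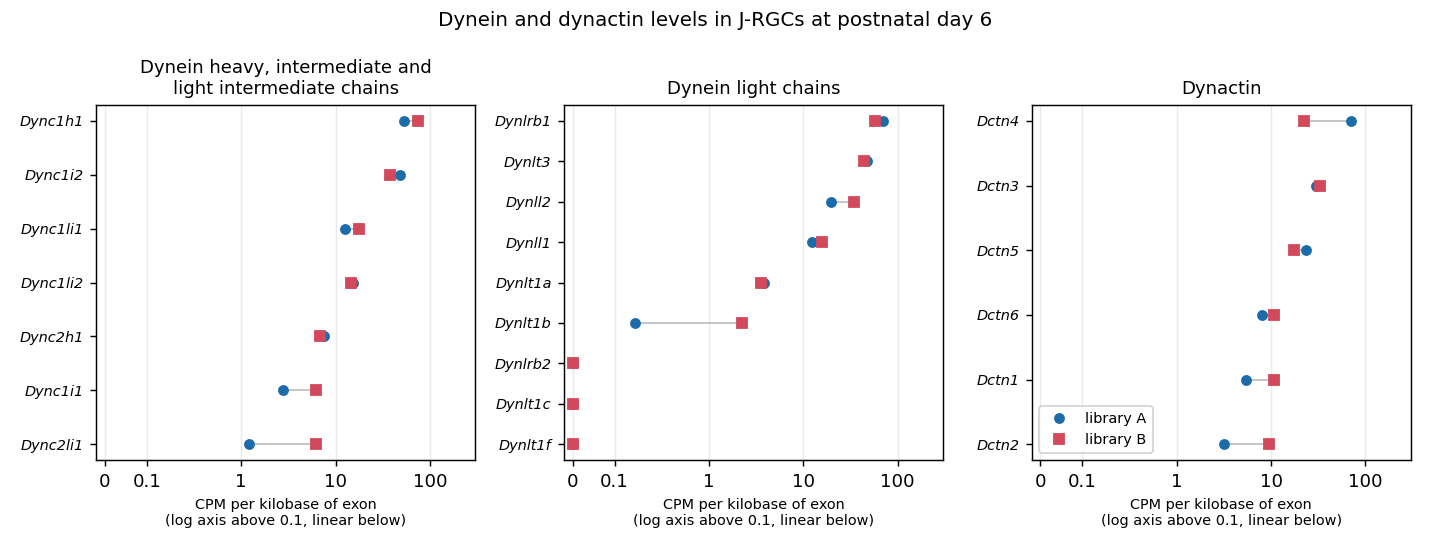
Levels of dynein and dynactin genes in CPM per kilobase of exon, 1 point per library, on an axis that is logarithmic above 0.1. Dync1h1, at 52.9 and 75.1, and Dynlrb1, at 69.1 and 57.1, stand highest in their panels, and Dctn4 shows the widest gap among dynactin genes, at 70.1 and 22.2.

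Dynein 2, the motor of return transport inside cilia, was lower. Its heavy chain gene Dync2h1 stood at 7.53 and 6.84 CPM per kilobase, and Dync1h1 exceeded it 8.90-fold (3.46 to 22.9). Its light intermediate chain gene Dync2li1 stood at 1.22 and 6.19. Of 19 intraflagellar transport genes outside the symbol rule 18 were detected and 9 reached 10 CPM in each library, with a median of 1.68 and 3.27 CPM per kilobase. Ift20 stood at 11.7 and 17.9 CPM per kilobase and Ift88 at 20.4 and 6.78. By the binomial test given below, Ift88 was the only 1 of the 19 called higher in A, and 10 were called higher in B. The shares of all genes were 10.3% and 32.3%. TMM scaling gave 3 higher in A and 6 in B, against 14.8% and 22.4% of all genes.

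All 6 dynactin genes were above 10 CPM in both libraries. Dctn3, which encodes the p24 subunit of the shoulder, stood at 29.9 and 33.2 CPM per kilobase, and Dctn5 and Dctn6, of the pointed end complex, at 23.7 and 17.6 and at 8.10 and 10.8. Dctn1 encodes p150glued, which binds microtubules and dynein, and stood at 5.36 and 10.7. Dctn2, encoding dynamitin, stood at 3.16 and 9.60, and Dctn1 over Dctn2 was 1.26 (0.521 to 3.03). Dctn1 lay well below the dynein heavy chain, at 0.125-fold of Dync1h1 (0.0489 to 0.321). Dctn4, also of the pointed end, stood at 70.1 CPM per kilobase in A and 22.2 in B. The dynactin genes together made up 10.3% of motor gene counts in A and 4.09% in B. Most of this was Dctn4 in A, with 8.54% alone, against 2.17% in B, so the summed share follows that gene.

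The actin-like filament and capping genes of dynactin, outside the symbol rule, were all above 10 CPM too, with a median of 16.9 and 24.5 CPM per kilobase beside 15.9 and 14.2 for the 6 Dctn genes. Of 14 dynein regulators and adaptors 11 were detected. Pafah1b1, encoding LIS1, which activates dynein, stood at 49.1 and 73.9 CPM per kilobase, and the adaptors Bicd1 and Hook1 at 26.4 and 6.97 and at 11.5 and 10.5. All 21 kinesin adaptors and cargo linkers were detected, and 19 reached 10 CPM in each library. Their highest members were Clstn1, a membrane protein that binds kinesin light chains, at 57.3 and 86.1 CPM per kilobase, Kidins220 at 40.9 and 68.0, Arl8b, which recruits kinesin to lysosomes, at 44.4 and 39.7, and Ppfia2 at 41.4 and 34.1.

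**Figure D3:**
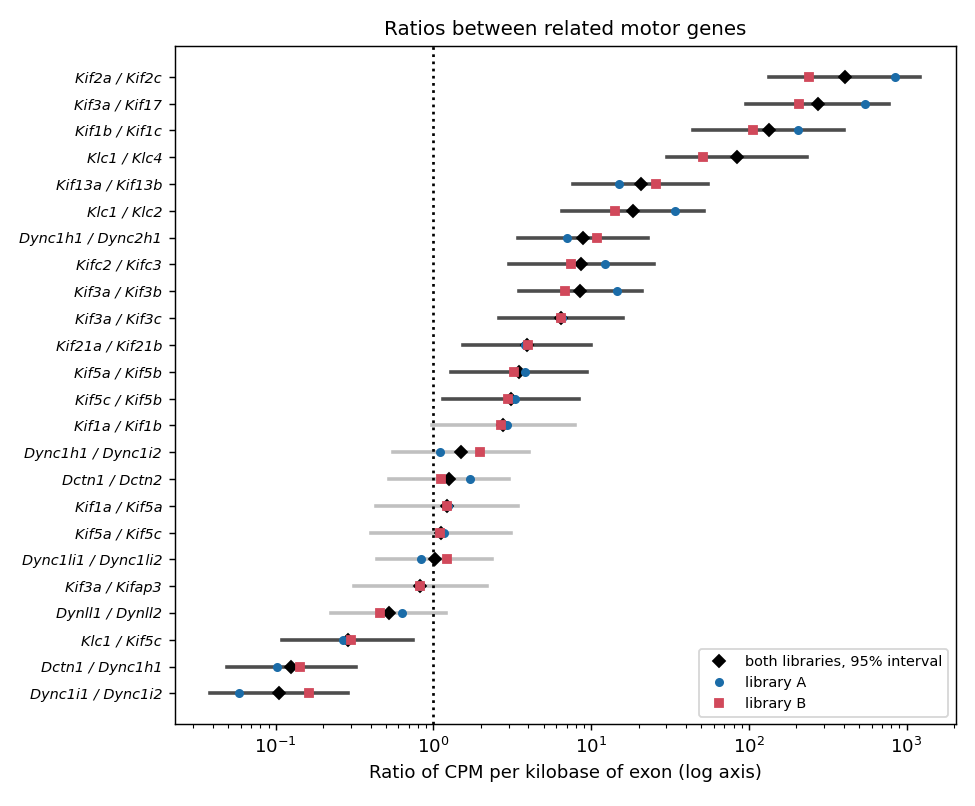
Ratios of CPM per kilobase for 24 pairs of related motor genes on a log axis, with the 95% interval (dark where it excludes 1) and the ratio in each library. For 16 of the 24 the interval excludes 1, from Kif2a over Kif2c at 405 to Dync1i1 over Dync1i2 at 0.105, and Kif3a over Kifap3 lies at 0.826.

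Of the 24 gene pairs 16 were separated from 1, and the ratio lay on the same side of 1 in both libraries for each of the 16 where both libraries gave one. For Klc1 over Klc4 the ratio exists only in B, since Klc4 had no read in A. The pairs were chosen with earlier results of these data known, and some genes stand in several pairs. The count of 16 therefore describes this choice of pairs and not motor genes at large.

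Of the 49 detected motor genes 34 lay within 2-fold between the libraries, 69.4% beside 64.3% of all detected genes. An exact two-sided binomial test compared each gene's counts, with Benjamini-Hochberg adjustment over the 14107 genes with at least 10 counts, and genes were called when the adjusted p was under 0.05 and the CPM, with a pseudocount of 0.5 added in each library, differed 2-fold or more. It compares these 2 libraries, not conditions. Of the 58 motor genes tested, 21 were called, 17 higher in B and 4 in A, against 42.6% of all genes in either direction, 32.3% higher in B and 10.3% higher in A. TMM scaling shifted the scale of log2 B over A by -0.39, and DESeq2 size factors by -0.48, and weak genes moved less because of the pseudocount. TMM left 13 higher in B and 4 in A, against 22.4% and 14.8% of all genes. All 17 calls were among the first 21, and Dync1i1, Kif1c, Kif4 and Kifc3 dropped out. The pseudocount shrinks the ratios of weak genes: Kif23, at 8 and 34 reads, had an adjusted p of 0.0301 by the exact binomial test and a CPM ratio of 2.45, but was not called. The calls fell mainly on weak genes: 6 of 37 motor genes with a mean of at least 10 CPM were called, against 29.1% of all such genes, and 15 of 21 weaker ones, against 59.2%.

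The 6 called genes with a mean of at least 10 CPM were Dctn4, Kif20b, Kif3b, Dctn2, Kif16b and Dync1i1. Of these, Kif20b, Kif16b and Dync1i1 were under 10 CPM in 1 library. Dctn4 stood at 813 CPM in A and 257 in B, a log2 ratio of -1.66. Kif20b stood at 16.8 and 6.04 CPM, -1.40 on the log2 scale with an adjusted p of 5.15e-13 by the exact binomial test. Higher in B were Kif3b, at 29.2 and 101 CPM (1.78), Dctn2, at 15.2 and 46.1 CPM (1.57), Kif16b, at 6.44 and 18.8 CPM (1.48), and Dync1i1, at 9.98 and 22.2 CPM (1.11). Among weak genes, Kif18a (9.10 and 3.64 CPM) and Kif27 (5.31 and 1.60 CPM) were higher in A. Higher in B were Kif14 (0 and 2.47 CPM), Klc4 (0 and 2.26 CPM), Kif11 (1.52 and 10.04 CPM), Kif20a (0.379 and 3.86 CPM), Dync2li1 (2.27 and 11.6 CPM), Kif6, Dynlt1b, Klc2, Kif24, Kif17, Kifc3, Kif1c and Kif4. Of 11 mitotic kinesins tested, 2 were called higher in A and 4 in B, against 10.3% and 32.3% of all genes. TMM scaling left 2 and 3. All of these but Kif20b had a mean under 10 CPM, where 59.2% of all genes were called in either direction. Library B also had 13744313 counts to the 7916204 of A, and the part of depth in these calls was not tested.

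**Figure D4:**
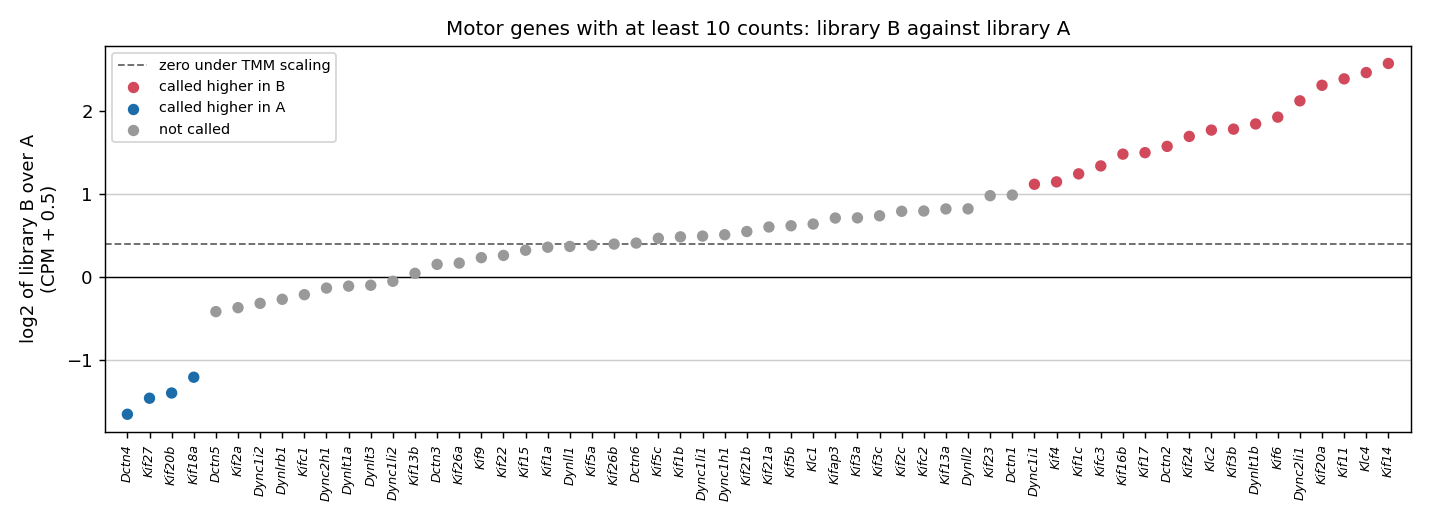
Log2 of library B over library A (CPM with a pseudocount of 0.5) for the 58 motor genes with at least 10 counts, in order, coloured where the exact binomial test with a 2-fold change called them. Dctn4 lies lowest at -1.66 and Kif14 highest at 2.57, and the dashed line marks where 0 falls under TMM scaling for abundant genes.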

How the data were processed

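Read counts per gene symbol were deposited by the authors, 1 file per library, as raw whole-number counts. Per the submitters' processing notes, the build was mm9 and the tools were HTSeq 0.6.1, TopHat2 2.0.10 and Trimmomatic 0.32. The sources used here do not give the annotation, settings or use of strand. The summary lines of each file stayed out of all totals: 26.8% and 30.9% of the listed reads in A and B were assigned to genes, and 18.5% and 20.8% fitted several places. The largest part, 54.3% in A and 47.9% in B, fell in no annotated feature. The counts were converted to CPM here, and exon lengths came from GENCODE M21 (GRCm38), which matched all 69 members, so no mm9 coordinates are given. edgeR 4.0.16 in R 4.3.3 gave TMM factors and the trended dispersion of an intercept-only fit over 11272 genes, with a common coefficient of variation of 0.507. With 1 group it had no contrast to test. Scipy 1.17.1 gave the binomial test. P-values set the difference between these 2 libraries against counting error alone and hold no estimate of the spread between libraries. The interval calculation was tested on simulated data. Those counts were drawn with the same dispersions that the intervals use, so the simulation cannot show whether the dispersions are right. The members, lists and pairs were chosen with earlier results of these data known. Every gene matched by the symbol rule could be named. Those at a mean CPM of at least 10, or called between libraries, were to be given in full, and genes outside the symbol rule by list with up to 4 members. Kif6, Kif24, Kif4, Kif14, Kif20a and Kifc3, called with a mean under 10 CPM, were given only in part. Alternatives were TMM and DESeq2 1.42.0 scaling, other thresholds, pseudocounts, lengths and dispersions, and each library alone.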

Additional observations from a re-analysis of the deposited data

How the results depend on the processing

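The number of detected motor genes, 49, stayed within 1.5 times under every alternative run: TMM, DESeq2 size factors, a CPM of at least 5, edgeR's expression filter and each library alone. The 21 calls between libraries became 32 at 1.5-fold and stayed within 1.5 times under both other scalings and without a count filter. The transport over mitotic difference of 5.06 on the log2 scale was 6.60 without length correction, 6.22 with a pseudocount of 0.1, 5.06 with the longest transcript and 4.95 with members of at least 10 counts. The count of separated pairs, 16, was 16 without length correction, 14 with the longest transcript, 17 with the common dispersion and 12 to 13 in single libraries. Without length correction, separated pairs whose ratio moved by over 1.5-fold, given here as the log2 ratio, were Kif3a over Kif3b (2.44), Kif3a over Kif3c (1.64), Kif1b over Kif1c (8.33), Kif13a over Kif13b (3.68), Kif21a over Kif21b (1.06), Klc1 over Klc4 (7.17), Klc1 over Kif5c (-2.61), Dync1i1 over Dync1i2 (-4.47) and Dctn1 over Dync1h1 (-4.26). With the longest transcript they were Kif1b over Kif1c (7.72), Klc1 over Klc4 (7.06) and Klc1 over Kif5c (-1.16). The log2 ratio of Dync1li1 over Dync1li2 turned to -0.61 without length correction and, over single libraries, ran from -0.27 to 0.28, and Dync1h1 over Dync1i2 turned to -0.17 with the longest transcript. In none of these turned ratios did the interval exclude 1. No paired analysis was possible because there is only 1 group. With 1 library the dispersion was kept, so intervals widen by construction. Members under 10 counts are limited by depth.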
